A study of Homo sapiens with 4 samples.

Results

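Promoter accessibility was examined for 44 genes mutated in inherited neuropathies of the Charcot-Marie-Tooth group, chosen by gene name from the 28775 promoters of an ATAC-seq count table. All 44 were found and all 44 passed the filter on low counts. They were divided by the role of the protein into 9 axonal genes, 5 myelin genes, 6 tRNA synthetase genes, 12 membrane traffic genes and 12 genes with other roles. ATAC-seq reads open chromatin through the adapters that the Tn5 transposase inserts into accessible DNA. All libraries came from HEK293T, a cell line established from human embryonic kidney and transformed with viral genes. Control cells (n = 2 libraries) were given lipofectamine, and overexpression cells (n = 2 libraries) were transfected with wild-type MORC2, which the methods of the study describe as fused to a monomeric enhanced green fluorescent protein. Both groups carry their own MORC2 gene, the labels name no empty plasmid for the control, and the share of cells that took up MORC2 is not given in the sources used here. The labels name replicates without saying whether they came from separate cultures, so the spread between these libraries may be technical. The edgeR test used below shares that spread between promoters, so its standard errors do not follow the spread at each single promoter.

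Charcot-Marie-Tooth disease is an inherited loss of motor and sensory function in the peripheral nerves. Demyelinating forms arise from genes that Schwann cells need to build and keep myelin, axonal forms from genes that long axons need for transport, mitochondria and their cytoskeleton, and further forms from tRNA synthetases, which charge tRNAs with amino acids, and from proteins of endosomes and phosphoinositide turnover. MORC2, an ATPase that compacts DNA and takes part in gene silencing, belongs to the same disease group, because its mutations cause an axonal form.

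The promoter sequences of 8 of these genes are given first. The 250 bases before the start are printed for the promoter with the highest and the one with the lowest control accessibility in the compared classes, where a sequence was at hand, and for CTDP1, DHTKD1 and HARS1, which were chosen after their values were seen. They come from RefSeq on GRCh38.p14, read 5′ to 3′ on the strand of the gene, and for genes with several starts the most upstream was taken. Capitals mark matches on either strand to the GC box, whose letters are GGGCGG. They also mark the CCAAT box, a common element of promoters named for its letters. In HARS1 the capitals mark the binding site of ETS family transcription factors, searched as CCGGAAGT.
KIF1B (chr1:10210320-10210569, plus strand): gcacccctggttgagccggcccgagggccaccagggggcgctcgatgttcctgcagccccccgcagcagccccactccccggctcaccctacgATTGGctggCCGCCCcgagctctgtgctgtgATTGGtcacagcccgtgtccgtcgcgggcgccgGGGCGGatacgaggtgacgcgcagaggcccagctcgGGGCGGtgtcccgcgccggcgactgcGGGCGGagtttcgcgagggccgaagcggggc
SH3TC2 (chr5:149063063-149063312, minus strand): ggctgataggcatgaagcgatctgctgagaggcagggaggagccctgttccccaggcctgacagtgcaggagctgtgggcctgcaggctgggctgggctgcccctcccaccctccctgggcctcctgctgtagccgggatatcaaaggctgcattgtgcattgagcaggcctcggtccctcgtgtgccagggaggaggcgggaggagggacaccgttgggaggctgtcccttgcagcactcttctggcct
MARS1 (chr12:57487818-57488067, plus strand): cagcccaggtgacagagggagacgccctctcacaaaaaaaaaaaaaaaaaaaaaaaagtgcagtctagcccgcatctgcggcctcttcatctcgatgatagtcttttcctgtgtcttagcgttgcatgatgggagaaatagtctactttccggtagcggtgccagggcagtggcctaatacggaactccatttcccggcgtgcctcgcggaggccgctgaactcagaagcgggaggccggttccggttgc
DNM2 (chr19:10717829-10718078, plus strand): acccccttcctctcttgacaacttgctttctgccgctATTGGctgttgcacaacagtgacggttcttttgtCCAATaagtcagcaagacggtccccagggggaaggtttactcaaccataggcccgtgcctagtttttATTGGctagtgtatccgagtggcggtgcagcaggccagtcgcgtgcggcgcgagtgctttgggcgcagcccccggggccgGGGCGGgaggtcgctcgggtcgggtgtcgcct
LITAF (chr16:11587467-11587716, minus strand): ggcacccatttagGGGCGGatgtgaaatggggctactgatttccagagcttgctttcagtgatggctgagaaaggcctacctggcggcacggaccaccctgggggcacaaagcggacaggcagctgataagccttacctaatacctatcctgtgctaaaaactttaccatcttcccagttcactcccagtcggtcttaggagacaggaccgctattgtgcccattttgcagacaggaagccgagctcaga
CTDP1 (chr18:79679553-79679802, plus strand): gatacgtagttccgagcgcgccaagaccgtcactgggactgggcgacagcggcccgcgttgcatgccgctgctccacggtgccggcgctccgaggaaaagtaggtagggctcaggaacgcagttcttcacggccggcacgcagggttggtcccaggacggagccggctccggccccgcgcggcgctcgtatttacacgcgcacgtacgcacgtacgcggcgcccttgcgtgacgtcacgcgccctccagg
DHTKD1 (chr10:12068704-12068953, plus strand): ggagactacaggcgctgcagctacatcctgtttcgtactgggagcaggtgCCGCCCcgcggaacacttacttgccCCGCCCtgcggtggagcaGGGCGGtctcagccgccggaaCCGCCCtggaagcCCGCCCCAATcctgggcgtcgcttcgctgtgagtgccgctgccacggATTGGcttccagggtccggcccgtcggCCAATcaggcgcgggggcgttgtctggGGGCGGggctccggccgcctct
HARS1 (chr5:140691371-140691620, minus strand): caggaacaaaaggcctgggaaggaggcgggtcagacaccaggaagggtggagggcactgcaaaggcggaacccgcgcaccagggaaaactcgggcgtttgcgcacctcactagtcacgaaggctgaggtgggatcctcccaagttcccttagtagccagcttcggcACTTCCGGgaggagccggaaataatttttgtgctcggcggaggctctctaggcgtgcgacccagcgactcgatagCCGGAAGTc

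Within these 250 bases the KIF1B promoter holds 4 GC boxes and 2 CCAAT boxes, that of DNM2 1 GC box and 3 CCAAT boxes, and that of DHTKD1 6 GC boxes and 3 CCAAT boxes, 1 of which overlaps a GC box. HARS1 has 2 ETS matches and LITAF 1 GC box. The SH3TC2, MARS1 and CTDP1 stretches hold none of the 9 motifs searched. SH3TC2 has 6 CpG dinucleotides in its 250 bases and CTDP1 has 38.

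To ask how open the neuropathy promoters were relative to others in HEK293T cells, levels were compared as CPM, counts relative to the TMM-scaled library size. The study defines a promoter as 2 kb around the transcription start. Comparisons of CPM levels between genes assume that the table counted this whole window, and so 1 length, for every gene. Total counts per library ranged from 3734519 to 10255182, and the neuropathy genes together contributed 12082 and 9101 counts to the control and 4312 and 2439 counts to the overexpression libraries. The median neuropathy promoter held 246 and 197 control counts and 95.5 and 53.5 overexpression counts, which makes single values coarser after overexpression. Mitochondrial promoters took 51.9% and 55.6% of the counts in control and 74.7% and 73.8% in overexpression, and with mitochondrial promoters left out of the scaling and the test the same number of neuropathy promoters, 2, passed the threshold.

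Most neuropathy promoters stood in the upper part of the nuclear promoters in control cells, and no level was set above which a promoter counts as open. Their median control level was 18.0 CPM, at the 71.5th percentile of the nuclear promoters in the table, and single levels ranged from 1.47 CPM at HK1 to 58.0 CPM at YARS1. Each gene has 1 row, and which start was counted is not stated for genes with several, such as HK1 (7 starts), PMP22 and LITAF. A low level therefore need not hold for the other starts of such a gene. The tRNA synthetase promoters stood highest, with a median of 26.8 CPM (17.3 to 58.0) at percentile 85.7, and the myelin promoters lowest, with a median of 3.14 CPM (2.54 to 32.6) at percentile 40.0. Axonal promoters had a median of 17.0 CPM (5.41 to 39.2), membrane traffic promoters 17.9 CPM (4.96 to 50.2) and promoters of other roles 16.6 CPM (1.47 to 54.9). The ranges of the classes overlapped, and these medians are a description of the genes named.

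**Figure D1:**
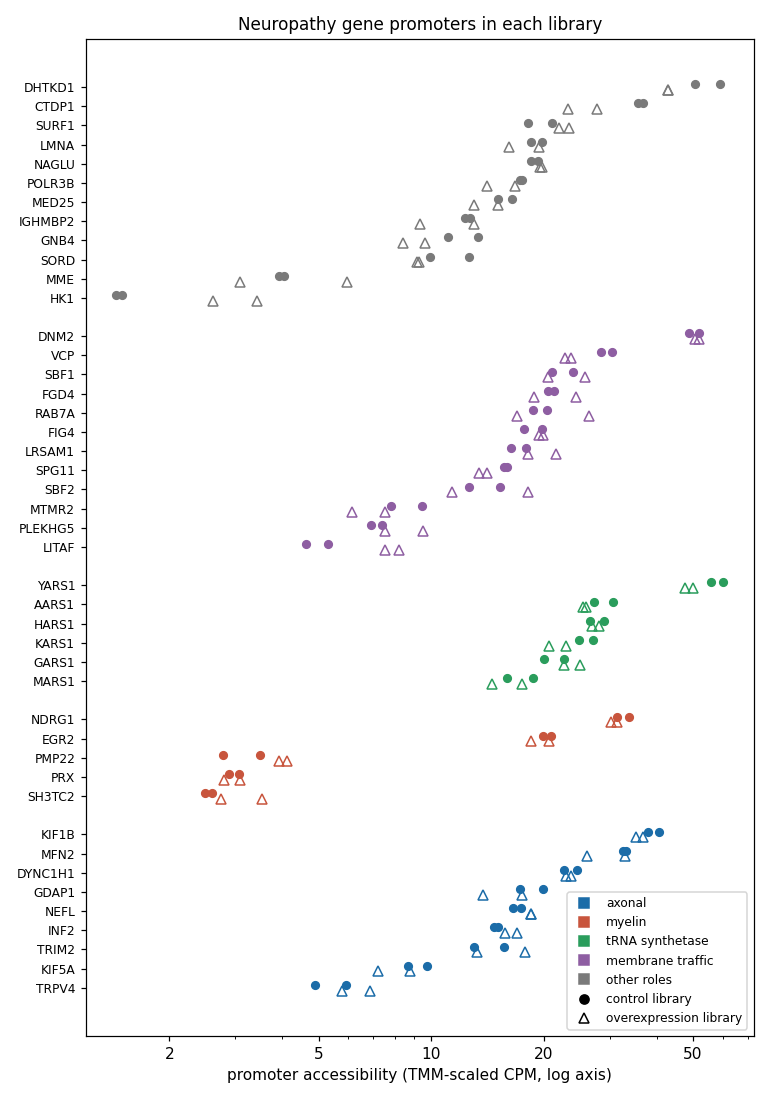
Promoter accessibility of the 44 neuropathy genes in each library, in TMM-scaled CPM on a log axis, with control libraries as filled circles and overexpression libraries as open triangles. Colours mark the 5 classes, ordered within each by the control mean, and the 3 lowest myelin genes (PMP22, PRX and SH3TC2) lie far to the left of EGR2 and NDRG1.

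The myelin class was split. The promoters of PMP22, a protein of compact myelin, PRX, which encodes periaxin of the Schwann cell membrane, and SH3TC2, an adaptor of endosome recycling in Schwann cells, had control means of 3.14 ± 0.497, 2.97 ± 0.127 and 2.54 ± 0.0722 CPM (SD, n = 2). EGR2, the transcription factor that drives Schwann cell myelination and is also an immediate early gene of many cells, stood at 20.4 ± 0.689 CPM (SD, n = 2), and NDRG1, a widely expressed stress-response gene, at 32.6 ± 1.70 CPM (SD, n = 2). The first 3 promoters were thus the lowest of the class and EGR2 and NDRG1 lay at percentiles 76.0 and 91.4. Promoters of 6 Schwann cell markers, SOX10 and MBP among them, had a median percentile of 36.9 and a summed level of 19.2 to 19.6 CPM in control and 25.0 to 30.5 CPM in overexpression libraries, and none was at 0. Blood markers (4 genes, 7.40 to 8.26 against 11.7 to 12.3 CPM) and liver markers (3 genes, 15.0 to 15.4 against 17.3 to 22.3 CPM) were also higher in both overexpression libraries. Most of the liver sum was APOA1, with a control mean of 14.2 CPM (adjusted p = 0.845, edgeR). TTR, at 0.751 CPM in control, had an adjusted p of 0.00518 (edgeR). The sums of the neuronal markers (76.3 to 78.7 against 77.1 to 78.5 CPM) and the kidney markers (140 to 144 against 130 to 147 CPM) overlapped between groups. Promoters of 6 embryonic kidney and HEK293 markers had a median percentile of 76.6. They were spread from 30.2 at EYA1 and 41.9 at PAX2 to 98.4 at VIM.

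In the axonal class the kinesin KIF1B (39.2 ± 2.00 CPM, SD, n = 2), the mitochondrial fusion GTPase MFN2 (32.9 ± 0.381) and the dynein heavy chain DYNC1H1 (23.6 ± 1.31) stood highest in control. The neurofilament light chain NEFL, a protein of neurons, had 17.4 and 16.5 CPM in the control libraries and lay at percentile 69.6, close to the median of the neuropathy genes. The neuronal kinesin KIF5A was at 9.20 ± 0.783 CPM (SD, n = 2), and the calcium-permeable channel TRPV4 was lowest at 5.41 ± 0.714 CPM (SD, n = 2). Promoters of 7 other neuronal genes had a median percentile of 49.9.

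All 6 synthetase promoters lay in the upper 2 of 4 abundance groups. Control means were 58.0 ± 3.07 CPM (SD, n = 2) for the tyrosyl enzyme YARS1, 28.9 ± 2.49 for the alanyl enzyme AARS1, 27.7 ± 1.72 for the histidyl enzyme HARS1, 25.9 ± 1.60 for the lysyl enzyme KARS1, 21.3 ± 1.87 for the glycyl enzyme GARS1 and 17.3 ± 1.90 for the methionyl enzyme MARS1. YARS1 stood highest of the 44 neuropathy promoters. The promoters of 14 further cytosolic synthetases, which are not in the neuropathy set, had a median of 23.7 CPM (14.2 to 39.5) and a median percentile of 81.5, near the 85.7 of the 6.

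Among membrane traffic genes, DNM2, which encodes the vesicle-cutting GTPase dynamin 2, had 50.2 ± 2.23 CPM (SD, n = 2) in control, and VCP, an ATPase that extracts ubiquitinated proteins, had 29.4 ± 1.38. The phosphoinositide group was spread over the range, with SBF1 at 22.4 ± 2.00, FIG4 at 18.7 ± 1.44, SBF2 at 13.9 ± 1.88 and the phosphatase MTMR2 at 8.63 ± 1.19 CPM (SD, n = 2). RAB7A, the GTPase of late endosomes, was at 19.6 ± 1.16 CPM. LITAF, a late endosome protein whose mutations cause a demyelinating form, was lowest of the class at 4.96 ± 0.464 CPM (SD, n = 2).

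CpG content of the promoter sequences varied with the class. For the 34 neuropathy genes matched to a RefSeq promoter sequence (250 bases before to 50 after the start), the median ratio of observed to expected CpG was 0.814, against 0.723 over 19554 genes. GDAP1, IGHMBP2, KIF5A, NAGLU, NDRG1, NEFL, SORD, SPG11, TRPV4 and YARS1 were not matched. The median was 0.926 in 5 axonal, 0.885 in 5 synthetase, 0.795 in 11 membrane traffic, 0.964 in 9 other and 0.249 in 4 myelin promoters. The 4 least accessible promoters with a sequence, HK1, SH3TC2, PRX and PMP22, had ratios of 0.0617, 0.225, 0.273 and 0.104. The same order runs through all genes, since the median ratio went from 0.231 in the lowest of 4 equal groups by control accessibility through 0.537 and 0.853 to 0.862 in the highest. INF2, a formin of the actin cytoskeleton, had a ratio of 0.182 at 14.9 CPM, so a low ratio did not always go with a low level. Of the 34 genes 17 have several starts, HK1, PMP22, EGR2 and INF2 among them, and the counted window may lie at another start than the sequence.

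**Figure D2:**
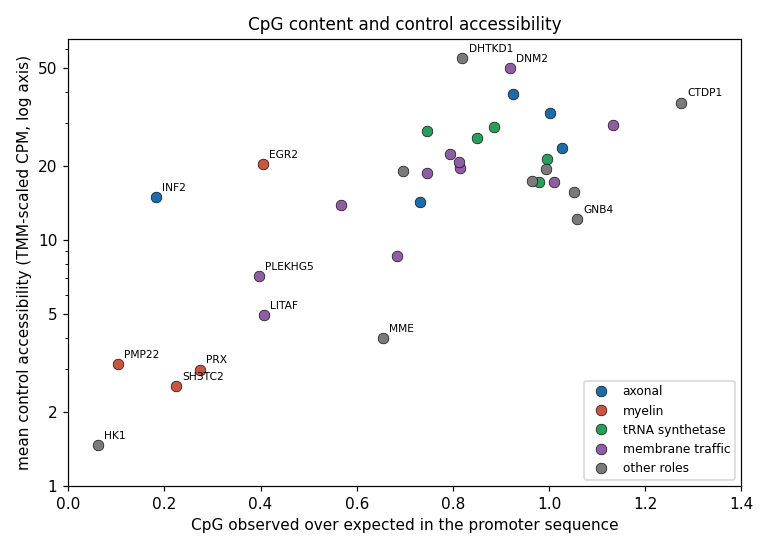
Control accessibility (mean of 2 libraries, TMM-scaled CPM, log axis) against the observed over expected CpG ratio of the promoter sequence for 34 neuropathy genes. HK1, PMP22, SH3TC2 and PRX sit at the lower left with ratios of 0.0617 to 0.273, and INF2 stands above them at a ratio of 0.182 and 14.9 CPM.

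Motif matches in the whole promoter sequences were near the shares of all genes for the common elements. GC boxes were found in 19 of 34 (55.9%, against 53.5% of 19554), CCAAT boxes in 11 (32.4%, against 36.2%) and the TATA box TATAAA in 2 (5.88%, against 10.1%), on both strands. The ETS site was in 1 (2.94%, against 5.53%) and the YY1 site AAGATGGC in 3 (8.82%, against 3.53%). The ATF4 site TTGCATCA was in 3, AARS1, MARS1 and HK1 (8.82%, against 0.762%), 2 of them synthetases. ATF4 is the transcription factor of the amino acid response. The NRF1 site GCGCATGC, the E-box CACGTG and the EGR site GCGTGGGCG matched none (against 3.97%, 8.28% and 1.01%). A match describes the letters and is no evidence of binding.

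Many of these genes start beside another gene, and their counts then belong to both. For 12 of the 44 (27.3%, against 18.4% of all tested promoters) the promoter of an adjacent gene had the same count in every library within 3 counts or 3%. They included 5 of the 6 synthetases, paired as YARS1 with S100PBP, AARS1 with DDX19B, HARS1 with HARS2, KARS1 with TERF2IP and MARS1 with ARHGAP9. HARS1 had 372, 301, 144 and 82 counts in control replicates 1 and 2 and overexpression replicates 1 and 2, and HARS2, the mitochondrial histidyl enzyme beside it, had 374, 301, 144 and 83. The remaining pairs were CTDP1 with CTDP1-DT, FIG4 with AK9, LRSAM1 with RPL12, SURF1 with SURF2, LMNA with MEX3A, IGHMBP2 with MRPL21 and SH3TC2 with SH3TC2-DT. When promoters whose mean count fell under 50 were left out, the shares were closer, 29.7% of the neuropathy genes and 25.0% of all. Where a pair matches, its rows cannot be told apart, and a value named for the neuropathy gene is equally that of its neighbour. SORD also has a near-identical copy, SORD2P, so its count is uncertain.

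**Figure D3:**
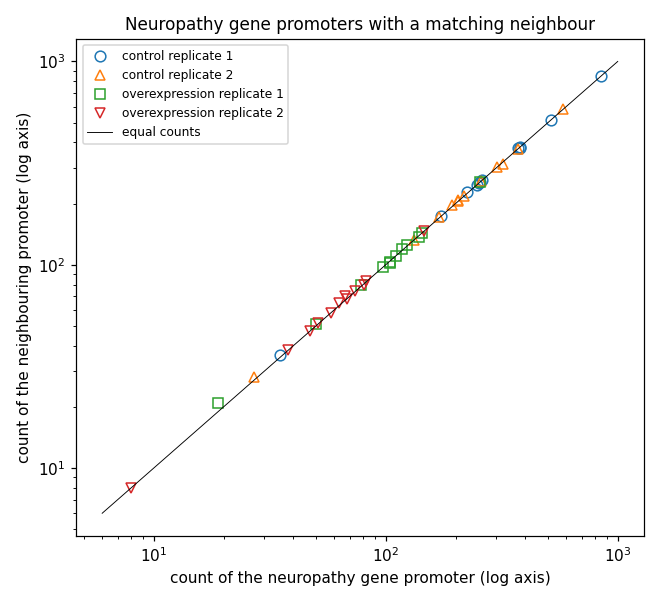
Counts of 12 neuropathy gene promoters (horizontal, log axis) against the adjacent gene with matching counts (vertical, log axis), 1 marker per library. The points follow the line of equal counts, and the largest difference in any library is 7 counts.

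To ask whether MORC2 overexpression changed accessibility at these promoters, each was tested with the edgeR quasi-likelihood F-test over all 23407 promoters that passed the filter, with Benjamini-Hochberg adjustment over all of them. Of the 44 neuropathy promoters 0 rose and 2 fell at an adjusted p under 0.05, CTDP1 and DHTKD1, which is 4.55% against 2.47% of all promoters in either direction and 1.30% that fell. At an unadjusted p under 0.05 the share was 8 of 44 (18.2%), near the 17.2% of all promoters, and 5 with DESeq2. For DESeq2 the share of all promoters at that p is not given here, so its counts stand without a background. Independent filtering in DESeq2 left an adjusted p for 4 of the 44, none under 0.05, and without that filtering DESeq2 called 0 of 44. The groups did not overlap at 23 of 44 promoters (52.3%, against 49.7% of all), with 10 higher and 13 lower in overexpression. The median log2 fold change, overexpression over control, was -0.033, against 0.0099 over all promoters. For 41 of the 44 the 95% interval of the log2 fold change lay within a 2-fold change in either direction, and the half-width of the interval was 0.20 to 0.79 with a median of 0.29.

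**Figure D4:**
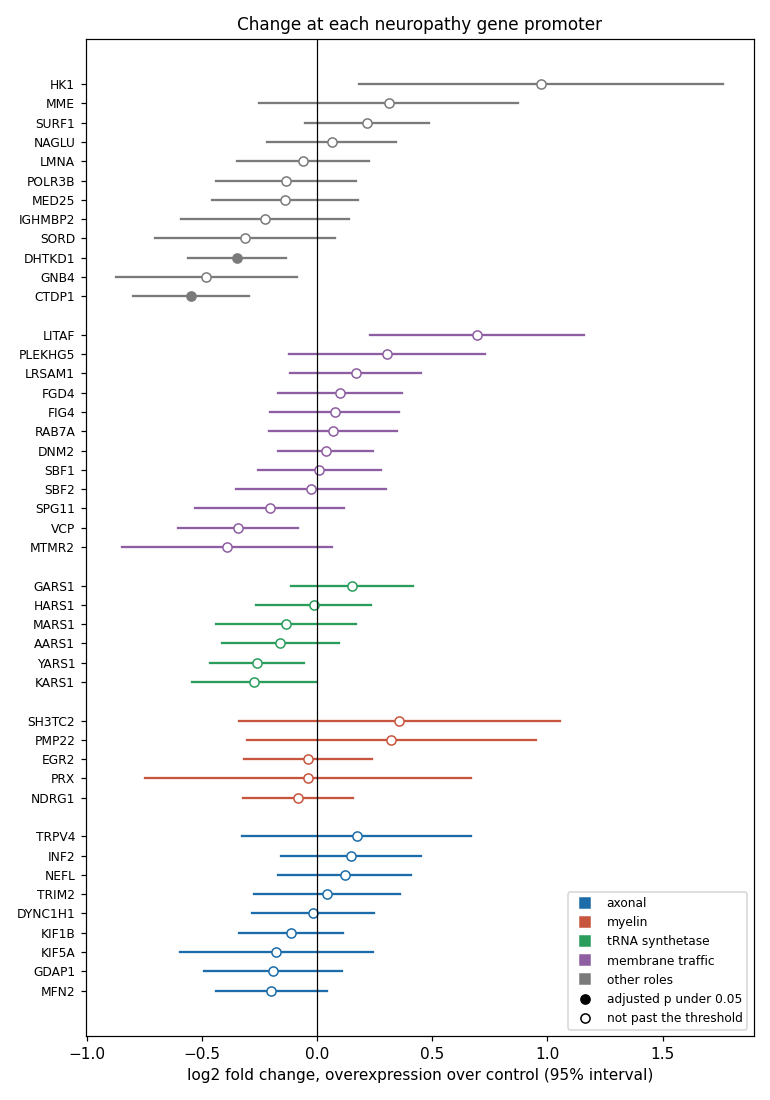
Log2 fold change (overexpression over control) with its 95% interval for each of the 44 neuropathy promoters, coloured by class, with filled points for an adjusted p under 0.05. The 2 filled points, CTDP1 and DHTKD1, lie to the left of 0, and the interval is widest for HK1, the promoter with the fewest counts.

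The MORC2 promoter itself showed 257 and 162 control counts and 87 and 42 overexpression counts, or 18.3 and 15.6 against 16.2 and 14.4 CPM. The groups overlapped, and the log2 fold change was -0.14 ± 0.16 (SE; adjusted p = 0.695, edgeR, Benjamini-Hochberg). Counts at the chromosomal promoter do not measure the plasmid, so the transfection itself is not checked by this value.

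CTDP1, which encodes a phosphatase of the RNA polymerase II tail and is mutated in a syndrome of cataracts, facial dysmorphism and neuropathy, fell by the larger amount of the pair. Its promoter showed 517 and 371 control counts and 124 and 81 overexpression counts, or 36.8 and 35.7 against 23.1 and 27.8 CPM. No overexpression library reached the level of a control library. The log2 fold change was -0.55 ± 0.13 (SE; adjusted p = 0.0038, edgeR, Benjamini-Hochberg). The divergent transcript CTDP1-DT had 517, 372, 125 and 80 counts and the same change (-0.55, adjusted p = 0.00356), so the fall cannot be assigned to either gene alone. Without control replicate 1 the adjusted p was 0.0618 and without overexpression replicate 1 it was 0.312, with loess scaling on abundance it was 0.125, and DESeq2 without independent filtering gave 0.240.

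DHTKD1, a subunit of the mitochondrial 2-oxoadipate dehydrogenase of lysine breakdown, is mutated in an axonal form. Its promoter, among the most open of the set, showed 712 and 615 control counts and 230 and 125 overexpression counts, or 50.7 and 59.1 against 42.9 and 42.8 CPM. The groups did not overlap. The log2 fold change was -0.35 ± 0.11 (SE; adjusted p = 0.0484, edgeR, Benjamini-Hochberg), just inside the threshold. The call was lost when any 1 library was left out, with adjusted p = 0.0529 and 0.398 without control replicates 1 and 2 and 0.293 and 0.257 without overexpression replicates 1 and 2, and with loess scaling (0.572) or upper quartile scaling (0.143).

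In the axonal class 0 of 9 promoters passed the test, 0 had an unadjusted p under 0.05 with either edgeR or DESeq2, and the median log2 fold change was -0.018. MFN2 had 33.1 and 32.6 CPM in control and 26.1 and 32.9 in overexpression, and the groups overlapped through overexpression replicate 2 (log2 fold change -0.20 ± 0.12, SE). KIF1B, at 37.8 and 40.7 against 36.7 and 35.3 CPM, differed by -0.11 ± 0.12 (SE). Its groups were apart by a margin smaller than the gap between the control libraries. TRPV4 had the largest positive value of the class, 0.17 ± 0.25 (SE), from 83 and 51 counts against 31 and 20, and -0.042 with loess scaling or -0.62 with library totals. INF2 followed at 0.15 ± 0.16 and the mitochondrial protein GDAP1 stood at -0.19 ± 0.15 (SE). Every axonal interval included 0.

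In the myelin class 0 of 5 promoters passed the test, with 0 at an unadjusted p under 0.05 by edgeR or DESeq2, and the median log2 fold change was -0.039. SH3TC2, with 35 and 27 counts against 19 and 8, stood at 0.36 ± 0.36 (SE), and PMP22, with 49 and 29 counts against 21 and 12, at 0.32 ± 0.32. Their overexpression levels lay above the control levels (2.49 and 2.60 against 3.54 and 2.74 CPM for SH3TC2, 3.49 and 2.79 against 3.91 and 4.11 CPM for PMP22), but both intervals included 0 and both signs turned with loess scaling (-0.038 and -0.031) and with library totals (-0.44 and -0.47). PRX was at -0.04 ± 0.36, EGR2 at -0.04 ± 0.14 and NDRG1 at -0.08 ± 0.12 (SE). The low counts limit what can be said of the 3 Schwann cell genes, whose 95% intervals reached from -0.75 to 1.05 on the log2 scale. A wider list of 13 genes of demyelinating forms, which does not hold HK1 and need not be complete, had a median of 0.0093. In it 0 rose and 1, CTDP1, fell. That is 7.69%, against 2.47% of all promoters called and 1.30% that fell, and the CTDP1 row matches that of CTDP1-DT.

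In the synthetase class 0 of 6 promoters passed the test and 2, YARS1 and KARS1, had an unadjusted p under 0.05. The 2 of 6 stand beside 17.2% of all promoters, and DESeq2 had 1 of 6 at an unadjusted p under 0.05. YARS1 had 60.2 and 55.8 CPM in control and 47.5 and 50.0 in overexpression, and its groups did not overlap (log2 fold change -0.26 ± 0.11, SE; adjusted p = 0.151, edgeR, Benjamini-Hochberg). KARS1 had 27.1 and 24.8 against 20.7 and 23.0 CPM, again without overlap (-0.27 ± 0.14; adjusted p = 0.268). GARS1, at 19.9 and 22.6 against 22.6 and 25.0 CPM, was the only 1 of the 6 with a positive value (0.15 ± 0.13), and HARS1 was at -0.01 ± 0.13 (SE). The log2 fold change was negative for 5 of the 6 with a median of -0.15, for 4 of 6 under upper quartile or loess scaling (medians -0.067 and -0.074), and for 6 of 6 under scaling by library totals. Of all tested promoters 48.6% were negative, and the most abundant of 4 equal groups, which holds 4 of these 6, had a median of -0.13. The 14 further synthetases had 11 negative values and a median of -0.14, with 0 called and 3 at an unadjusted p under 0.05, IARS1 and TARS1 among them (adjusted p = 0.204 and 0.231). The 3 of 14 are 21.4%, near the 17.2% of all promoters. Under loess scaling 9 of these 14 were negative, with a median of -0.07.

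In the membrane traffic class 0 of 12 promoters passed the test and 2 (16.7%, against 17.2% of all) had an unadjusted p under 0.05, in opposite directions, as many as with DESeq2. LITAF showed 65 and 55 control counts and 44 and 22 overexpression counts, or 4.63 and 5.29 against 8.20 and 7.54 CPM. Both overexpression libraries lay above both control libraries, and the log2 fold change was 0.69 ± 0.24 (SE; adjusted p = 0.0913, edgeR, Benjamini-Hochberg), or -0.10 with library totals. VCP had 28.4 and 30.4 against 22.7 and 23.6 CPM with no overlap, and differed by -0.34 ± 0.13 (SE; adjusted p = 0.130). MTMR2 stood at -0.39 ± 0.23, PLEKHG5, a guanine nucleotide exchange factor, at 0.30 ± 0.22, and DNM2, the most open promoter of the class, at 0.04 ± 0.10 (SE). The class median was 0.052, with 8 positive and 4 negative values.

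Among the 12 genes with other roles, which held both called promoters, HK1 and GNB4 also had an unadjusted p under 0.05. That made 4 of 12 (33.3%, against 17.2% of all) with edgeR. With DESeq2 the number was 2 of 12 and with loess scaling 3 of 12, both without a share of all promoters beside them. HK1, the hexokinase of the first step of glycolysis, showed 21 and 15 control counts and 14 and 10 overexpression counts, or 1.50 and 1.44 against 2.61 and 3.43 CPM. The groups did not overlap, and the log2 fold change was 0.97 ± 0.40 (SE; adjusted p = 0.182, edgeR, Benjamini-Hochberg), or 0.18 with library totals. GNB4, a G protein beta subunit, had 13.3 and 11.1 against 8.39 and 9.59 CPM and differed by -0.48 ± 0.20 (SE; adjusted p = 0.159). MME, the membrane protease neprilysin, was at 0.31 ± 0.29 with overlapping groups. Between 0.22 and -0.31 on the log2 scale lay SURF1, an assembly factor of cytochrome oxidase, the lysosomal enzyme NAGLU, the lamin gene LMNA, the RNA polymerase III subunit POLR3B, the Mediator subunit MED25, the helicase IGHMBP2 and the sorbitol dehydrogenase SORD. The class median was -0.14, with 8 of 12 negative.

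Summed over each class, the level in the overexpression libraries relative to control was 0.966 for axonal, 0.980 for myelin, 0.913 for synthetase, 1.01 for membrane traffic and 0.873 for other genes. The synthetase sums were 177 and 181 CPM in control and 158 and 169 CPM in overexpression. The sums of the other-role genes were 220 and 226 against 194 and 195 CPM, and the axonal sums 175 and 175 against 166 and 172 CPM. These 3 classes did not overlap between groups. The membrane traffic sums were 226 and 232 against 223 and 242 CPM, with overlap. An exact permutation test of 2 against 2 libraries cannot give a p below 0.333, so no p was computed for these sums.

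Over all promoters the log2 fold change went down as abundance rose, and in the neuropathy genes the order was less regular. Over the 23407 tested promoters the median log2 fold change was 0.39, 0.13, -0.05 and -0.13 in 4 equal groups from the least to the most abundant. The neuropathy genes of those 4 groups had medians of 0.36 (3 genes), -0.0029 (10), 0.05 (18) and -0.16 (13). HK1, SH3TC2 and PRX made up the lowest group, and all synthetases except GARS1 and MARS1 were in the highest. Across the 44 genes, which share their 4 libraries, the Spearman correlation of control level with log2 fold change was -0.41 (-0.55 across all promoters). The control level is also the denominator of that fold change, so random spread in it can by itself make the correlation negative. For fold changes from the fit with loess scaling on abundance the correlation was 0.03. That scaling removes the trend with abundance, so the small value follows from the method and says nothing further about these genes. Under loess scaling 0 of 44 promoters were called by edgeR (against 0.248% of all) and 5 had an unadjusted p under 0.05. The share of all promoters at that unadjusted p is not given here for the loess fit. In that fit LITAF, HK1, CTDP1 and DHTKD1 stood at 0.49, 0.54, -0.42 and -0.19.

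**Figure D5:**
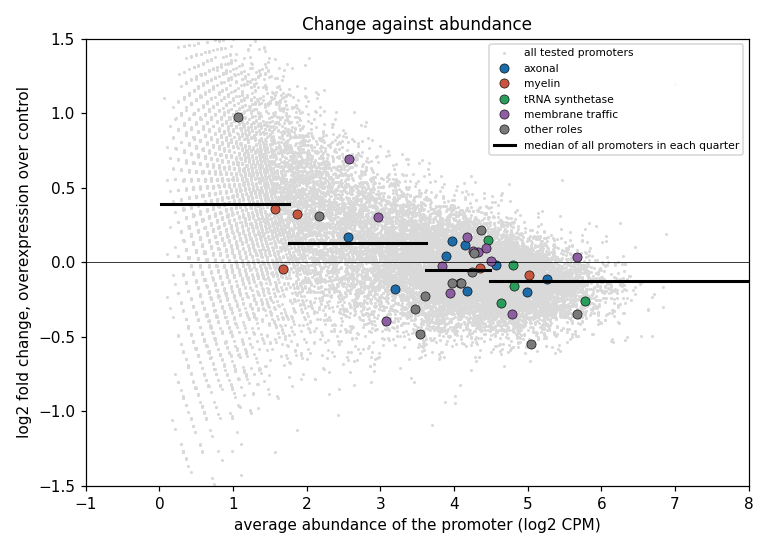
Log2 fold change (overexpression over control) against average abundance (log2 CPM) for all tested promoters in grey and the neuropathy genes in the colours of their classes, with black bars for the median of all promoters in each of 4 abundance groups (0.39, 0.13, -0.05 and -0.13). The axes leave out 99 grey points, and most neuropathy genes lie in the upper 2 groups.

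A wider list held 50 further inherited neuropathy genes, of which 49 were in the table and 47 were tested. Of the 47, 0 rose and 2 fell (4.26%, against 2.47% of all promoters called and 1.30% that fell). At an unadjusted p under 0.05 with edgeR there were 5 of 47 (10.6%, against 17.2% of all). The groups did not overlap at 18 of the 47 (38.3%, against 49.7% of all), so both of these shares lay below those of all promoters. FBXO38, a subunit of a ubiquitin ligase mutated in a motor neuropathy, showed 335 and 284 control counts and 92 and 57 overexpression counts, or 23.9 and 27.3 against 17.1 and 19.5 CPM (log2 fold change -0.49 ± 0.14, SE; adjusted p = 0.0319, edgeR, Benjamini-Hochberg). ARHGEF10, another exchange factor, linked to slow nerve conduction, had 16.7 and 13.7 against 10.3 and 9.94 CPM (-0.60 ± 0.18; adjusted p = 0.0407). Neither pair of groups overlapped. FBXO38 was called without control replicate 1 (adjusted p = 0.0468) and not without control replicate 2 (0.230) or overexpression replicate 1 (0.385) or 2 (0.0966), and ARHGEF10 was called without control replicate 2 (0.0313) and not without control replicate 1 (0.343) or overexpression replicate 1 (0.243) or 2 (0.188). Neither was called with upper quartile scaling, loess scaling or DESeq2. GJB1, which encodes the myelin gap junction protein of the connexin family and causes an X-linked form, had 47 and 22 counts against 22 and 22. These are 3.35 and 2.11 against 4.10 and 7.54 CPM, with the overexpression libraries far apart. The log2 fold change was 0.92 ± 0.30 (SE; adjusted p = 0.0725, edgeR, Benjamini-Hochberg), and this shared standard error does not follow that spread.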

How the data were processed

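ATAC-seq reads of 2 control and 2 MORC2 overexpression libraries of HEK293T cells were trimmed by the authors with Trim Galore, aligned with bowtie2 to the telomere-to-telomere assembly CHM13, filtered to well-mapped proper pairs and freed of duplicates with Picard. The deposited table holds raw counts of fragments per promoter, 1 row per Entrez gene, without normalisation. No shift for the Tn5 offset was described, and windows of close genes share fragments. That the rows count the whole 2 kb window is an assumption. Peak lists were not used here, since they carry CHM13 positions and no gene annotation of that build was at hand. Symbols came from a RefSeq gene table of GRCh38.p14 by Entrez identifier, which named 28763 of 28775 promoters. Counts were filtered with filterByExpr and scaled by TMM in edgeR 4.0.16 (R 4.3.3), and tested with the quasi-likelihood F-test (legacy form, two-sided, group as the only term) with Benjamini-Hochberg adjustment over all 23407 promoters (threshold 0.05). Its prior degrees of freedom came out infinite, so dispersion was shared between promoters. Intervals (95%) came from the standard error of the fit. The test was first run on simulated counts, which held no shift in the mitochondrial share and no trend of the change with abundance. That run cannot show how the test handles these 2 features of the data. The other tools were limma 3.58.1, DESeq2 1.42.0, Python 3.11.15 and pandas 2.3.3. Reads carry no molecular identifiers, so counts need not be independent molecules. Genes, classes and lists were chosen with earlier results of these data known. Named genes were MORC2, those with an unadjusted p under 0.05, the 2 largest and the 2 smallest fold changes and the highest and lowest control level in each of the 5 classes, pairs with matching neighbours, and called genes or else the 3 smallest p of the further lists. Some genes that this rule or the lists hold are not reported here by name. Other genes named for their role or level were chosen after their values were seen. The alternatives covered scaling, filters, tests, the replicate block, mitochondrial promoters, the threshold, the class list, the sequence window and leaving out each library.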

Additional observations from a re-analysis of the deposited data

How the results depend on the processing

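Against 2 of 44 neuropathy promoters called in the fit reported, 39 were called with scaling by library totals (0 rose), which count mitochondrial fragments and shift the median of all promoters to -0.78. The number was 1 (CTDP1) with upper quartile scaling, with a floor of 10 counts per library and with a floor of 50 on the mean count, 0 with loess scaling and with DESeq2 with independent filtering (an adjusted p for 4 of the 44) or without (chosen after seeing the data), and 0 to 1 when single libraries were left out. CTDP1 and DHTKD1 kept a negative sign in every fit listed here. DESeq2 gave CTDP1 no adjusted p under independent filtering and 0.240 without. DHTKD1 was also lost with the filters (adjusted p = 0.0788 and 0.176), DESeq2 (0.114 and 0.606) and the replicate block (0.0758). With DESeq2 5 neuropathy promoters had an unadjusted p under 0.05, with no share of all promoters beside it. DESeq2 size factors, no filter, the edgeR 4 form, limma-voom and leaving out mitochondrial promoters gave 2. Over all promoters the count of calls was 577, against 16319 with library totals, 58 with loess scaling, 368 and 218 with the filters at 10 and 50, 108 and 52 with DESeq2, and 101 to 206 without single libraries. At an adjusted p under 0.1 there were 1166. The share of calls that fell was not stable either, with 305 of 577 in the fit reported, 109 of 493 with upper quartile and 16268 of 16319 with library totals. The median log2 fold change of the 44 genes (-0.03) was -0.82 with library totals, 0.048 with upper quartile, -0.0083 with loess, -0.013 with either filter, -0.058 without filter, -0.024 with both forms of DESeq2, -0.023 with limma-voom, -0.042 without mitochondrial promoters and -0.073 to 0.0044 without single libraries. Class medians with library totals were -0.81 (axonal), -0.83 (myelin), -0.94 (synthetase), -0.74 (membrane traffic) and -0.94 (other). With upper quartile scaling they were 0.063, 0.041, -0.067, 0.13 and -0.058 in that order, and with loess 0.027 (axonal), -0.074 (synthetase) and 0.13 (membrane traffic). Without single libraries they ranged from -0.082 to 0.00087 (axonal), -0.073 to 0.038 (myelin), -0.20 to -0.058 (synthetase), -0.043 to 0.084 (membrane traffic) and -0.30 to -0.065 (other). Of the 44 genes, signs turned for 18 with library totals, 6 with upper quartile, 8 with loess and 0 with DESeq2 size factors, none of them past the threshold in the fit reported. Among the 24 genes named by rule they turned with library totals for DNM2 (-0.76), GARS1 (-0.64), INF2 (-0.65), LITAF (-0.10), MME (-0.49), PLEKHG5 (-0.50), PMP22 (-0.47), SH3TC2 (-0.44) and TRPV4 (-0.62), with upper quartile for HARS1 (0.066) and PRX (0.039), with loess for HARS1 (0.091), KIF1B (0.027), NDRG1 (0.038), PMP22 (-0.031), SH3TC2 (-0.038) and TRPV4 (-0.042) (and outside the rule for EGR2 and DYNC1H1, 0.024 and 0.067), and with the filters at 10 (0.011) and 50 (0.057) for HARS1. Without single libraries the sign also turned for HARS1 (-0.083 to 0.041), DNM2 (-0.011 to 0.076), MARS1 (-0.26 to 0.019), MME (-0.37 to 0.58) and PRX (-0.1 to 0.038). The shift under library totals comes from its denominator, and the cause was not tested for the others. With the replicate block 1 neuropathy promoter (CTDP1) was called, and 488 of all promoters. Same-numbered libraries deviated together with a correlation of only 0.05 over 14976 promoters, so the numbers were not taken as pairs. With 2 libraries a group and a median of 53.5 counts in the shallowest, small changes at the least open promoters could not be resolved. In the 250 bases before the start alone, the ATF4 site was in 5.88% of neuropathy promoters (0.670% of all) and the YY1 site in 2.94% (1.42%).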
